A study of Mus musculus with 6 samples.

Results

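Odour-detecting neurons of the nose, the olfactory sensory neurons (OSNs), were compared with brain from which the olfactory bulbs had been excluded. The comparison used 4 of the 6 arrays of the series, and took in each of the 45137 probe sets that are not controls. The OSNs were the GFP-positive cells of olfactory epithelium from OMP-GFP mice, a line in which green fluorescent protein takes the place of the coding region of Omp, the olfactory marker protein of mature OSNs. Cells were collected by fluorescence sorting, with RNA from about 500000 of them per the labels. The brain RNA came from OMP-GFP mice too, so both populations share the reporter allele. Age, sex, strain, the number of pooled animals and whether mice were homozygous for the allele are points that the sources used here do not give. The comparison sets a neuron that faces the air, with its dendritic cilia, against a tissue of many neuron and glial types, to find transcripts of the sensory neuron.

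An OSN detects odorants with receptors on long cilia that hang in the nasal mucus. The receptor activates a G protein that contains the alpha subunit Gnal, which turns on the adenylyl cyclase Adcy3. The cyclic AMP made there opens a cation channel built from Cnga2, Cnga4 and Cngb1. Calcium that enters is cleared by an exchanger, cyclic AMP is broken down by phosphodiesterases, and the axon runs through the skull to release glutamate onto the olfactory bulb. The brain uses the same gene families for its own signalling, mostly through other members.

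Each population was hybridised to 1 Affymetrix array of chip A and 1 of chip B, so no difference here has a replicate check, no p-value is given, and every ratio describes these arrays. Signals are intensities on a linear scale, and are always given with OSNs first. The 2 chips are not on the same scale. The probe set of Psap that both carry read 10628 in OSNs on chip A and 36348 on chip B, and that of Copg1 759.9 and 2671. The chip of a gene is mostly not named below, so signals of different genes are not to be ranked against each other. A ratio was taken within a chip after signals below a floor (70.3 on chip A, 79.7 on chip B, the lower quartile of the chip) were raised to it, and is written "at least" where the lower signal was at the floor. A gene was counted if at least 1 of its signals was as high as the median of the chip (222 on A, 243.7 on B). If only the higher one reached it, the filter fixes the sign of the ratio. Genes with both signals at or above the chip median are called measured in both.

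Of 18193 genes on the arrays, 2287 (12.6%) lay 2-fold or more above brain in OSNs and 2606 (14.3%) lay 2-fold or more below it, with 7487 within 2-fold and 5813 below the signal filter. Higher genes were thus 46.7% of the calls. When ratios were centred instead on the probe sets that both chips carry, the counts were 1778 and 3127, higher genes were 36.2% of the calls, and the median of all genes moved to -0.18 log2 units. A difference of 4-fold or more was found for 818 genes (4.5%) on the higher side and 1272 (6.99%) on the lower side. Among the 9304 genes measured in both, where the filter does not fix the sign, 1530 (16.4%) were higher and 1111 (11.9%) lower.

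Marker genes matched the labels. Omp, the gene whose coding region the sorted GFP replaces, stood at 11057 in OSNs and 201.4 in brain, which checks the label and is not a finding. Each of the 5 OSN markers (Omp, Cnga2, Gnal, Adcy3 and Stoml3) was higher in OSNs, with summed signals of 35569 against 855.9 on chip A and 106729 against 2973 on chip B. The 18 markers of brain neurons, oligodendrocytes, astrocytes and microglia on the arrays were each at least 2-fold lower in OSNs, and 6 of them were at the floor there. Their summed signals were 1481 in OSNs and 30876 in brain on chip A, and 2703 and 24738 on chip B. Signal of genes known from other epithelial cells was present in the sort, and its source was not tested. The 4 markers of supporting and gland cells, Cyp2g1, Cbr2, Bpifa1 and Krt18, summed to 10837 in OSNs and 347.5 in brain. In whole tissue, fewer cells of a type and less RNA per cell cannot be told apart.

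**Figure D1:**
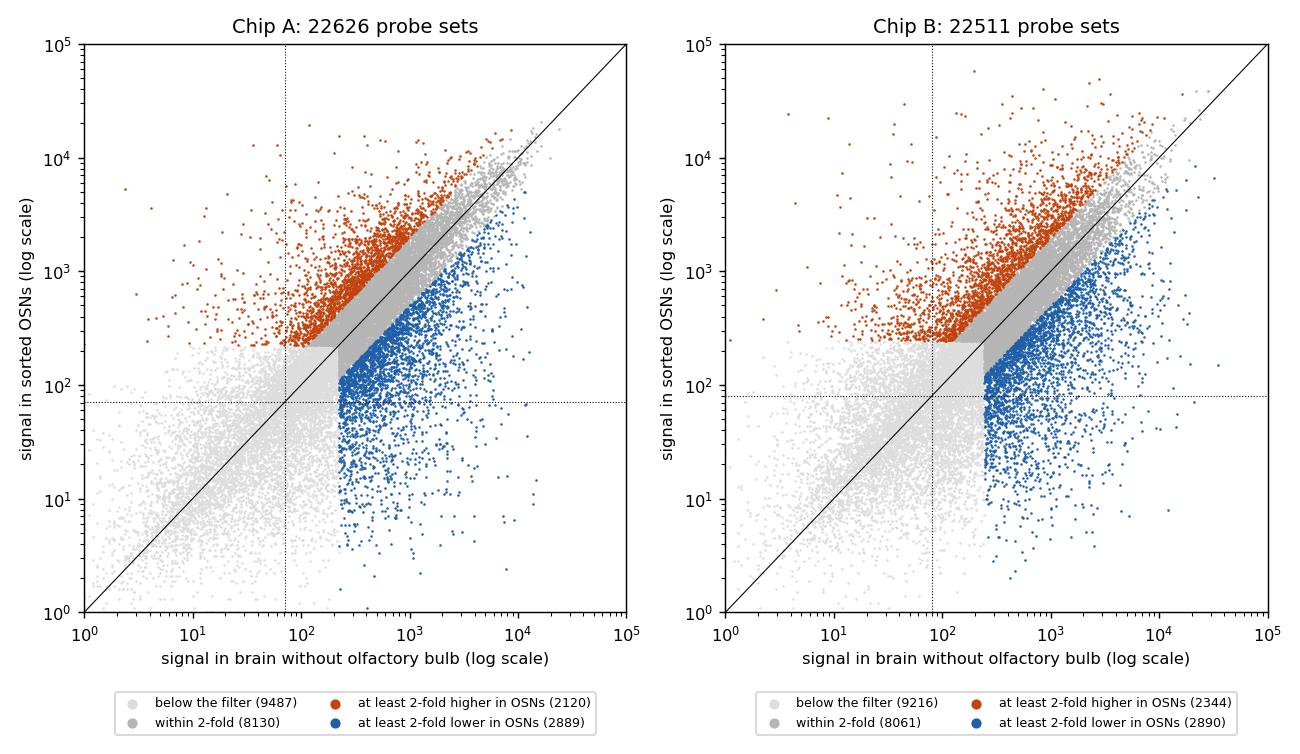
Signal of every probe set in brain without olfactory bulb (horizontal, log scale) and in sorted OSNs (vertical, log scale), with 22626 probe sets on chip A and 22511 on chip B; dotted lines mark the floor, and signals below 1 are drawn at 1. Points above the diagonal by 2-fold or more (2120 on chip A or 9.37%, 2344 on chip B or 10.4%) and below it (2889 or 12.8%, and 2890 or 12.8%) are coloured, and the lower ones reach further into the region under the floor of the other axis.

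The calls on the lower side rested more often on a single array. Of the higher genes, 66.9% were measured in both arrays and 220 (9.62%) had brain at the floor. Of the lower genes, 42.6% were measured in both and 561 (21.5%) had OSNs at the floor. The median call was 3.18-fold among higher genes and 3.93-fold among lower ones. Genes measured in both differed little as a rule, by 1.48-fold at the median, and 71.6% of them lay within 2-fold. Differences of 4-fold or more were found for 754 of these genes (8.10%), and of 16-fold or more for 83 (0.892%).

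The only spread the design gives lies between chips and between probe sets. The 100 probe sets carried by both chips had log2 ratios that differed by -0.19 on average (chip A minus chip B) with an SD of 0.29. The sign was the same on both chips for 83 of them, and none was 2-fold apart in opposite directions. Only 10 were 2-fold higher and 3 were 2-fold lower on both chips, so opposite calls had little room to occur. Their chip A ratios ran from -1.31 to 2.54, so the SD does not describe larger ratios or signals near the floor. Probe sets of the same gene spread more, with a pooled SD of 0.79 log2 units over 5564 genes, and 75 genes (1.35%) had probe sets 2-fold apart both ways. Where a gene called lower had other counted probe sets, 77.4% of those also reached 2-fold, against 53.4% for genes called higher. Neither measure stands for the spread between animals.

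**Figure D2:**
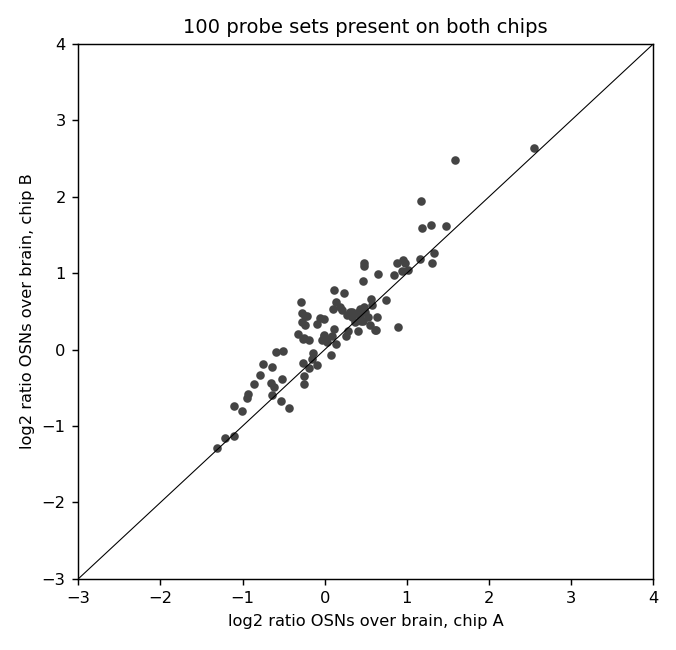
Log2 ratio of OSNs over brain on chip A (horizontal) and chip B (vertical) for the 100 probe sets present on both chips, 1 point per probe set, with the line of equality. The points follow the line and lie on average 0.19 log2 units above it.

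Over all genes 12.6% were higher and 14.3% lower, and each count of a list or family is to be read beside these shares. The odour transduction list had the highest median of the 40 lists. Of its 15 genes on the arrays, 13 were higher in OSNs, 1 was lower and 1 was below the filter, with a median log2 ratio of 3.33, where the median of every gene on the arrays was 0. Cnga4, a channel subunit, had 22366 in OSNs and 8.80 in brain, at least 281-fold higher. Its partner Cnga2 had 10559.8 in OSNs and 64.0 in brain, at least 150.2-fold higher, so both subunits were bright in OSNs and at the floor in brain. Cngb1, the remaining subunit, stayed below the filter in both populations.

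Stoml3, a stomatin-family membrane protein of OSN cilia, had 57983 in OSNs and 194.1 in brain (299-fold). Its relative Stom had 14337 in OSNs and 535.0 in brain (26.8-fold), and each of its 5 counted probe sets was higher, by 4.74 to 7.52 log2 units. Ric8b, which promotes nucleotide exchange on the olfactory G protein, had 45258 in OSNs and 2259 in brain (20.0-fold). The arrays lay far apart for all 3. Grk3, a kinase that phosphorylates activated receptors, went the other way with 370.2 in OSNs and 4748 in brain, 12.8-fold lower, and its 3 counted probe sets ranged from -4.10 to -3.68.

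Within several signalling families, OSNs and brain had different members high. The 50 families defined by symbol were not all signalling families. Of the 50, 21 held at least 1 member 4-fold or more higher in OSNs and another 4-fold or more lower. Over all genes 4.5% and 6.99% were that far apart, so a large family can hold both by its size. By the probe set that stands for each gene, G protein beta subunits, RGS proteins, CNG and HCN channels and CaM kinase II did not hold both. Other probe sets in 3 of these families passed 4-fold higher. The counted probe sets of Camk2d ranged from -0.15 to 7.43 log2 units, those of Rgs3 from -0.15 to 2.39 and those of Gnb1 from 1.04 to 2.06. Among G protein alpha subunits, Gnal had 48746 in OSNs and 2778 in brain (17.5-fold higher), and its 3 probe sets ranged from 0.66 to 4.13. Gnas, the stimulatory subunit of most other cells, had 485.7 in OSNs and 12139 in brain (25-fold lower). Gnai1, an inhibitory subunit, had 122.6 in OSNs and 3879.7 in brain (31.6-fold lower). Of the 15 alpha subunit genes on the arrays Gnal was the only one at least 2-fold higher (6.67%), and 6 were lower (40%).

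The gamma and cyclase families showed the same split. Gng13, the gamma subunit of mature OSNs, had 13388 in OSNs and 1329 in brain (10.1-fold higher). Gng8, known from immature OSNs, had 1796 in OSNs and 328.6 in brain (5.47-fold higher). Against these, Gng3 had 511.9 in OSNs and 4701 in brain (9.18-fold lower) and Gng7, a striatal subunit, was at least 26.0-fold lower. In the beta family Gnb1 was 2.06-fold higher at 14521 against 7053, while Gnb2 was 23.2-fold lower at 137.5 against 3188.

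Adcy3 had 13952 in OSNs and 590.5 in brain (23.6-fold higher), with 4 probe sets between 3.21 to 4.82. Adcy1, a calcium-stimulated cyclase of brain neurons, had 341.4 in OSNs and 17939.7 in brain (52.5-fold lower). This was the lowest ratio among genes measured in both whose counted probe sets agreed in sign. Of the 10 cyclases on the arrays, Adcy3 was the only one higher and 6 were lower, including Adcy2, Adcy6 and Adcy9. These are 10% and 60%, against 12.6% and 14.3% of all genes, so the higher share was near that of all genes.

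Genes with phosphodiesterase symbols, most of them for enzymes that break down cyclic nucleotides, divided in the same way with 4 higher (17.4%) and 9 lower (39.1%) of 23. The 4 include Pde6d, which is a carrier and not such an enzyme. Pde1c, the calcium-dependent enzyme of OSN cilia, had 3516 in OSNs and 479.2 in brain (7.34-fold), and Pde4a, found in the OSN cell body, had 2494 in OSNs and 385.5 in brain (6.47-fold). Pde7b was 10.2-fold higher at 36353 against 3552, and Pde6d, a carrier of lipid-modified proteins to cilia, 13.2-fold at 5656 against 429.7. On the brain side stood Pde10a, an enzyme of striatal neurons, with 179.2 in OSNs and 2690.2 in brain (15-fold lower), and Pde2a with 1148 in OSNs and 7809.8 in brain (6.80-fold lower). Probe sets of Pde1c spread from 0.51 to 5.86. For Pde2a the spread was -4.30 to -0.53.

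Ion handling followed suit. Slc24a4, the potassium-dependent exchanger that clears calcium from OSN cilia, had 4837 in OSNs and 717.9 in brain (6.74-fold higher). The brain exchanger Slc8a3 was at least 18.7-fold lower at 57.5 against 1487. Slc12a2, which loads cells with chloride, was 3.0-fold higher at 6204 against 2067, and Slc12a5, which exports chloride from mature brain neurons, was 20.3-fold lower at 332.3 against 6752. Slc12a7, another exporter, was at least 28.4-fold higher at 1998 against 33.8. The plasma membrane calcium pump Atp2b3 had 263.8 in OSNs and 7292 in brain (27.6-fold lower).

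**Figure D3:**
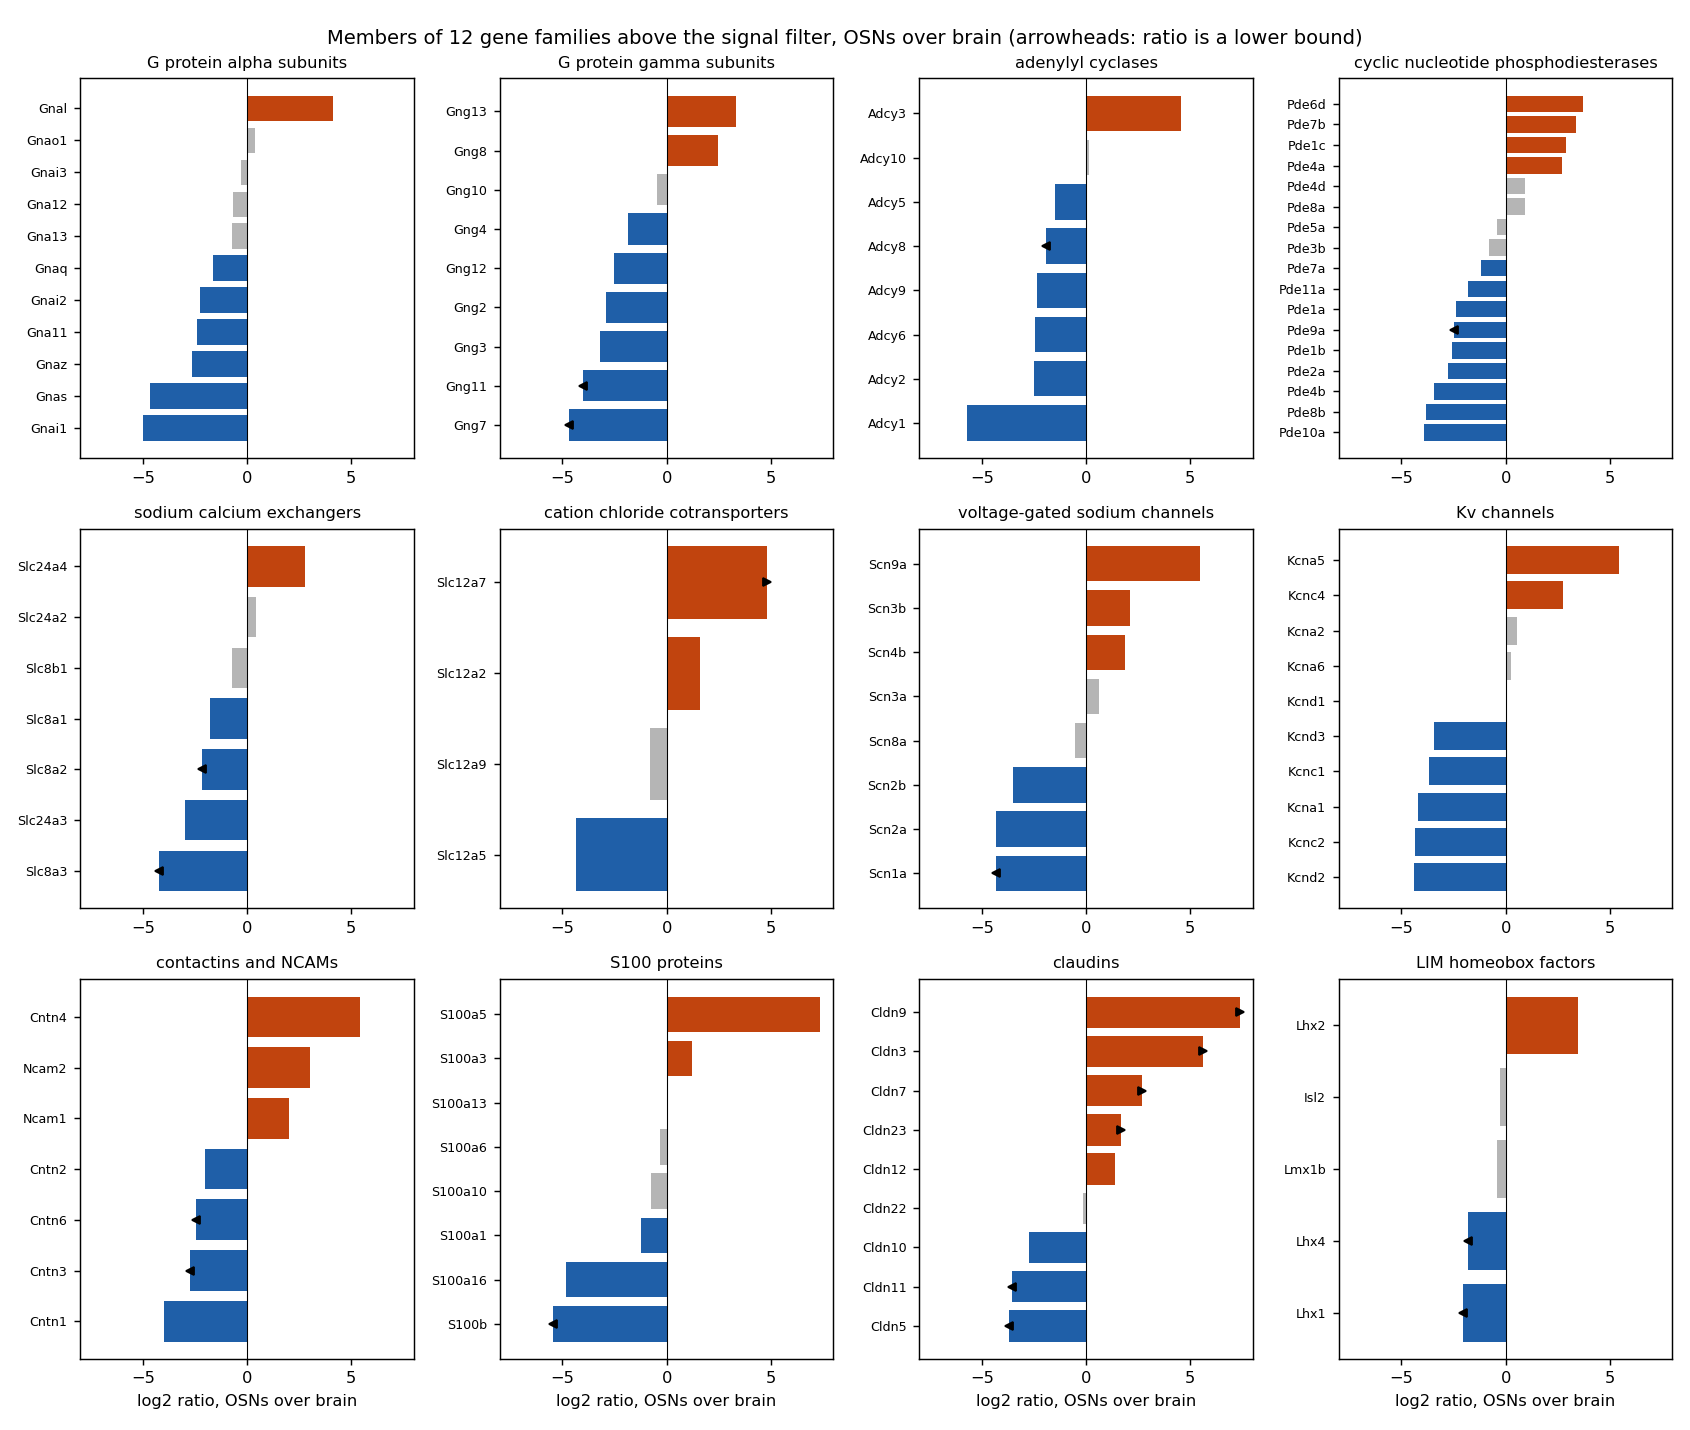
Log2 ratio of OSNs over brain (horizontal) for the members of 12 gene families that passed the signal filter, 1 bar per gene; orange bars are at least 2-fold higher in OSNs, blue at least 2-fold lower, grey within 2-fold, and arrowheads mark ratios that are lower bounds. The 12 were taken from the 21 families with members 4-fold or more apart in both directions, for example Adcy3 at 4.56 and Adcy1 at -5.72.

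Voltage-gated channels also differed by member. The sodium and calcium channel list had 6 genes higher and 13 lower of 26, with a median of -1.18, but over the 13 genes measured in both the median was 0.41. Scn9a, a sodium channel of sensory neurons, had 9139.6 in OSNs and 209.6 in brain (43.6-fold higher), and all 5 of its counted probe sets were higher, by 2.90 to 5.45 log2 units. The main brain channels were lower, Scn2a with 336.4 in OSNs and 6709.8 in brain (19.9-fold) and Scn1a with 27.6 in OSNs and 1422 in brain (at least 20.2-fold). Scn8a was within 2-fold (-0.55).

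The auxiliary sodium channel subunits Scn3b (5057 against 1194, 4.24-fold) and Scn4b (16559.7 against 4565, 3.63-fold) were higher in OSNs, and Scn2b (500.5 against 5613, 11.2-fold) was lower. Cacna1h, a low-voltage-activated calcium channel, had 1906 in OSNs and 275.7 in brain (6.91-fold higher), and another channel of that class, Cacna1g, was at least 13.3-fold lower at 15.6 against 931.6. Cacna1b, the N-type presynaptic channel, was within 2-fold (0.30), whereas the P/Q-type channel Cacna1a was 4.48-fold lower. Thus members of one functional class differed in direction.

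Of 44 potassium and HCN channel genes, 4 were higher and 22 lower, with a median of -1.44, and 0.10 over the 18 measured in both. Kcna5 had 3427 in OSNs and 78.8 in brain (43.5-fold higher), and Kcnc4, a fast delayed rectifier, 4127 in OSNs and 617.1 in brain (6.69-fold higher). The calcium-activated channel Kcnn1 was 3.20-fold higher at 647.7 against 202.5. Lower genes included Kcnc2 (125.4 against 2560.3, 20.4-fold), Kcnd2 (83.9 against 1759, 21-fold), and Kcnip2 (50.3 against 3161, at least 39.7-fold), which binds Kv4 channels such as Kcnd2. Kcna1 was 18.3-fold lower, with probe sets that spread over -4.20 to 0.53.

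Of 40 vesicle release genes, 2 were higher, 18 lower, 18 within 2-fold and 2 below the filter, with a median of -0.93. Among all genes 14.3% were lower. The calcium sensor Syt1 had 22027 in OSNs and 23792 in brain, the SNARE protein Stx1a 2648 against 2721 and the vesicle GTPase Rab3a 10365 against 10988, with log2 ratios of -0.11, -0.04 and -0.08. Cplx2 was within 2-fold as well (-0.61), while its relative Cplx1 had 383.9 in OSNs and 3622 in brain (9.44-fold lower).

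Several release genes were far below brain. Erc2, an active zone scaffold, had 45.4 in OSNs and 3114 in brain (at least 39.1-fold), Rph3a, a Rab3 effector, 820.1 against 12506 (15.2-fold), and Rab3c 464.8 against 8535 (18.4-fold). Rab3b had 1146 in OSNs and 89.4 in brain and was 12.8-fold higher, so Rab3 members differed in direction. For glutamate loading, Slc17a6 (VGLUT2) was 2.51-fold higher in OSNs at 3839 against 1528, and Slc17a7 (VGLUT1) was 37.9-fold lower at 233.6 against 8863. Syn2 probe sets disagreed, from -2.91 to 3.25.

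Of 27 postsynaptic density genes, 1 was higher and 18 were lower (median -1.93, and -1.22 over the 19 measured in both). The exception was the scaffold Homer2, with 17179 in OSNs and 2227 in brain (7.71-fold higher) and 3 probe sets between 2.95 to 3.46. Nrgn, a calmodulin-binding protein of dendritic spines, had 19.7 in OSNs and 3443 in brain (at least 49.0-fold lower), and dendrin (Ddn) had 508.4 in OSNs and 14903 in brain (29.3-fold lower). The scaffold Dlg1 was within 2-fold (0.49).

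Transmitter receptor genes were mostly lower. None of 21 glutamate receptor genes was higher and 17 were lower (median -3.43, and -1.33 over the 3 measured in both), among them the AMPA receptor subunit Gria2 with 109.8 in OSNs and 3098 in brain (28.2-fold) and the metabotropic receptor Grm3 with 13.6 in OSNs and 3038 in brain (at least 38.1-fold). Of 21 GABA and glycine genes, 18 were lower and 1 was higher (median -3.69, and -1.08 over the 5 measured in both). The cerebellar subunit Gabra6 had 54.7 in OSNs and 2976 in brain (at least 42.3-fold lower). Most of these genes were above the filter in brain only, 15 of the lower genes in each list, so the filter set their direction.

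The higher exception was gephyrin (Gphn), an inhibitory synapse scaffold that also makes molybdenum cofactor, at 1769.6 against 755.1 (2.34-fold), with probe sets from -1.63 to 1.23. The GABA-B receptor gene Gabbr1, whose product acts on OSN terminals, was 2.11-fold lower with 2483 in OSNs and 5233 in brain. Of 33 monoamine and acetylcholine genes, 13 were lower, 2 higher and 11 below the filter (median -0.64). One of the 2 was Drd2, the D2 dopamine receptor, which also acts on OSN terminals, with 1839 in OSNs and 425.8 in brain (4.32-fold higher). The serotonin receptor Htr2c was 23.9-fold lower at 128.5 against 3073.

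Of 32 neuropeptide and granin genes 14 were lower and 3 higher, with a median of -0.81, and 0.14 over the 13 measured in both. Cartpt, which encodes the CART peptide, had 8225 in OSNs and 748.0 in brain (11-fold higher). Chga, a granule protein, had 10763 in OSNs and 1382 in brain (7.79-fold higher), whereas its relative Chgb had 1062 in OSNs and 5579 in brain (5.25-fold lower). The vasopressin gene Avp was 2.79-fold higher at 1609.6 against 577.2.

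Other peptide genes were lower. Sst had 24.8 in OSNs and 2199.9 in brain (at least 31.3-fold lower) and Cck 26.3 in OSNs and 2197 in brain (at least 31.3-fold lower). The secreted precursor Vgf had 30.6 in OSNs and 4831 in brain (at least 60.6-fold lower), and the convertase inhibitor Pcsk1n had 240.9 in OSNs and 5979 in brain (24.8-fold lower). The processing enzyme Cpe was within 2-fold (0.04), as was the granule chaperone Scg5 (0.14).

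Among 27 genes of calcium-binding proteins 16 were lower and 2 higher (median -1.86, and -0.83 over the 13 measured in both). Of the 16, 10 were above the filter in brain only. S100a5, an S100 protein of OSNs, had 19449.7 in OSNs and 117.1 in brain (166-fold higher). The astrocyte member S100b had 62.8 in OSNs and 3027 in brain (at least 43.1-fold lower) and S100a16 had 157.4 in OSNs and 4500 in brain (28.6-fold lower). Calb2, calretinin, was 2.88-fold higher at 6921 against 2401, and Hpca, hippocalcin, was 37.0-fold lower at 110.5 against 4090.2.

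Several genes often taken as general neuron markers were low in OSNs. Thy1, a surface glycoprotein of brain neurons, had 79.6 in OSNs and 5734 in brain (72.0-fold lower). Rbfox3, the NeuN antigen, had 378.0 in OSNs and 16687 in brain (44.1-fold lower), and its 3 probe sets lay between -5.46 to -2.36. Nefl, the neurofilament light chain, had 433.4 in OSNs and 18777 in brain (43.3-fold lower). In the pan-neuronal list 11 of 27 genes were lower, 14 were within 2-fold and 2 were higher.

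The 2 higher genes were the RNA-binding protein Elavl3 (3931 against 1576, 2.49-fold) and the endosomal protein Nsg1 (13616 against 5530.2, 2.46-fold). Uchl1, Tubb3 and Stmn2 differed by less than 2-fold (0.48, 0.46 and -0.28 on the log2 scale). Among intermediate filaments Prph, peripherin, had 2354 in OSNs and 52.5 in brain (at least 33.5-fold higher), though its probe sets ranged from -0.23 to 5.07, and Nefm had 28.9 in OSNs and 2469 in brain (at least 35.1-fold lower). Tau (Mapt) was 20.1-fold lower at 428.9 against 8632 and Map2 10.7-fold lower at 1184 against 12713.

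Tubulin isotypes also separated. Tubb4a had 205.2 in OSNs and 7749.5 in brain (37.8-fold lower), while Tubb2b had 1499 in OSNs and 364.4 in brain (4.11-fold higher) and Tubb4b 10999 in OSNs and 3599 in brain (3.06-fold higher). Dcx, a microtubule protein of young neurons, was 6.93-fold higher at 2804 against 404.4, and each of its 4 probe sets was higher, by 1.22 to 3.49 log2 units. Of 17 genes in the immature OSN list 6 were higher and 2 lower (median 0.46), and Gap43, a growth cone protein, was within 2-fold (-0.57).

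Guidance and adhesion genes of the olfactory map, which steer OSN axons to glomeruli, went both ways, with 19 higher and 16 lower of 49 (median 0.50, and 0.80 over the 35 measured in both). Cntn4, a contactin, had 4033 in OSNs and 95.3 in brain (42.3-fold higher), and Cntn1 477.3 in OSNs and 7483 in brain (15.7-fold lower). The ephrin Efna3 had 10455 in OSNs and 784.5 in brain (13.3-fold higher), and the receptor Epha4 58.5 in OSNs and 1549.6 in brain (at least 19.4-fold lower). The protocadherin Pcdh8 was 12.3-fold higher at 18916 against 1535.

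Among semaphorin receptors, Nrp2 (2587 against 532.8, 4.86-fold), Plxna3 (3688 against 744.2, 4.96-fold) and Plxna1 (4617 against 1344, 3.43-fold) were higher in OSNs. The adhesion molecule Kirrel was 7.71-fold higher at 3400.3 against 441.2 and Ncam2 8.11-fold higher at 1087 against 134.1. Chl1 was 25-fold lower at 178.2 against 4452, with a second probe set at -0.40, and Nrcam 6.67-fold lower at 479.9 against 3199. Receptors and adhesion proteins of the map were thus found on both sides.

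The list of transcription factors known from OSNs had 13 of 20 genes higher and 2 lower (median 1.52, and 2.09 over the 14 measured in both). All 4 Ebf genes were higher, with a median of 4.38. Ebf4 had 10344 in OSNs and 431.9 in brain (23.9-fold) and Ebf1 9373 in OSNs and 515.1 in brain (18.2-fold). Among homeobox factors needed for receptor expression, Lhx2 had 4591 in OSNs and 408.4 in brain (11.2-fold) and Emx2 2530.2 in OSNs and 361.8 in brain (6.99-fold).

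Atf5, a stress-linked factor that acts in receptor choice, had 12836 in OSNs and 407.7 in brain (31.5-fold higher). Factors outside that list were also far above brain: Nfatc1 had 9481 in OSNs and 269.6 in brain (35.2-fold), Tshz2 21590.2 in OSNs and 762.1 in brain (28.3-fold) and Insm1, a zinc-finger factor of neuronal progenitors, 4151 in OSNs and 61.0 in brain (at least 52.1-fold). Mef2c, a factor of excitatory brain neurons, had 34.6 in OSNs and 3985 in brain (at least 56.7-fold lower), and its 5 probe sets were all lower, with log2 ratios from -5.83 to -3.80. Zic1, a cerebellar factor, was at least 60.1-fold lower at 30.8 against 4794.

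Odorant receptors, of which a mature OSN is known to express a single gene, were covered by 38 genes here. Of these, 25 were higher in OSNs, none was lower, 2 were within 2-fold and 11 were below the filter, and 2 were measured in both. The sign was therefore fixed by the filter for nearly all of them. Olfr672, for example, had 2583 in OSNs and 28.9 in brain (at least 36.7-fold).

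RNA-binding proteins split in direction, with 8 of 34 higher and 10 lower (median -0.03). Mbnl3, a muscleblind splicing factor, had 6111 in OSNs and 94.9 in brain (64.4-fold higher), Ptbp3 had 3866 in OSNs and 494.6 in brain (7.82-fold higher) and Msi1 2056 in OSNs and 458.7 in brain (4.48-fold higher). The neuronal splicing factors Rbfox1 (41.4 against 9296, at least 117-fold), Celf5 (348.8 against 10673, 30.6-fold) and Nova1 (263.4 against 846.8, 3.21-fold) were lower. Esrp1, an epithelial splicing factor, was at least 17.9-fold higher at 1261 against 6.60. The supporting-cell marker sums given above (10837 and 347.5) lay in the same direction, and their part in the Esrp1 signal was not tested.

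Among genes measured in both whose counted probe sets agreed in sign, H2bc21, a polyadenylated histone H2B, had the largest ratio. It had 29421 in OSNs and 354.5 in brain (83.0-fold higher), and its 2 probe sets gave 5.83 to 6.37. Other chromatin genes differed less. In the list of DNA methylation, Polycomb and lamina genes 13 of 42 were higher and 7 lower (median 0.31). Hmgn3 was 4.57-fold higher at 6892 against 1508 and Dnmt3a 2.67-fold higher at 1777 against 665.0. The remodeller Chd5 had 245.9 in OSNs and 4293 in brain (17.5-fold lower), and the heterochromatin protein Cbx5 had 281.2 in OSNs and 1938 in brain (6.89-fold lower). Lbr, a lamina protein whose loss from OSNs is known to go with receptor clustering, was within 2-fold (0.34).

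Imprinted genes, which are expressed from 1 parental allele, were lower as a group, with 17 of 27 lower, none higher, 5 within 2-fold and 5 below the filter (median -2.03, and -1.75 over the 12 measured in both). Meg3, a maternally expressed noncoding RNA, had 616.7 in OSNs and 17317 in brain (28.1-fold), and all 11 of its counted probe sets were lower, with log2 ratios from -8.04 to -4.12. Ndn, necdin, had 128.6 in OSNs and 5645 in brain (43.9-fold lower), Nnat 101.8 in OSNs and 4048 in brain (39.8-fold lower) and Peg3 999.1 in OSNs and 5848 in brain (5.85-fold lower). The Gnas gene described above is imprinted as well. Ube3a and Sgce were within 2-fold, with 0.51 and 0.19, and probe sets of both disagreed in sign.

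Cilia genes were higher in OSNs. Genes of intraflagellar transport and of Bardet-Biedl syndrome, needed for cilia and their cargo, numbered 34, with 27 higher and none lower (median 1.56). The filter fixed few of these signs, since 31 were measured in both and 25 of those were higher. Ift43 had 11388 in OSNs and 661.4 in brain (17.2-fold), Traf3ip1 8666 in OSNs and 1030.5 in brain (8.41-fold) and Bbs5 4859 in OSNs and 820.1 in brain (5.92-fold). The motor subunits Kif3a and Kif3b were within 2-fold, with 0.58 and 0.44.

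Motile cilia genes, which serve the beating of cilia, were higher for 24 of 33 (median 2.43), 19 of them above the filter in OSNs only. Cfap126 had 7892 in OSNs and 451.4 in brain (17.5-fold), Spef2 4391 in OSNs and 14.1 in brain (at least 55.1-fold) and Rsph1, a radial spoke protein, 1562 in OSNs and 41.8 in brain (at least 22.2-fold). Dnah1, an inner arm dynein, was 2.67-fold lower at 183.3 against 490.1. Outside these lists stood Pifo, a ciliary protein, with 10571 in OSNs and 410.8 in brain (25.7-fold higher), and the kinesin Kif9 with 2607 in OSNs and 159.3 in brain (16.4-fold higher). Foxj1, a regulator of motile cilia, was 8.58-fold higher at 987.7 against 115.1, and the ciliary factors Rfx3 (3979.9 against 464.3, 8.57-fold) and Rfx4 (3431 against 588.1, 5.83-fold) were higher too.

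RFX factors bind an X-box, searched here as GTTGCC, any 2 bases, GG, any 2 bases and AC, on both strands in the 250 bases before and 50 after the start site of each gene (RefSeq, GRCm38.p6). Among genes with such a sequence it was found in 165 of 14452 (1.14%), in 47 of 1857 higher genes (2.53%) and in 17 of 2058 lower genes (0.826%). For the 100 genes with the highest ratios the count was 4 of 79 (5.06%). For the 100 lowest it was 2 of 79 (2.53%), also above the share of all genes. In the intraflagellar transport list 3 of 30 promoters held it, and in the motile cilia list 1 of 27, that of Spag6l, which was below the signal filter. Windows of 60 bases that end before the start site are given for 6 ciliary genes, chosen after their values were seen, because they place the motif beside the genes that were higher in OSNs. Capitals mark the motif or its reverse complement, and each window reads 5′ to 3′ on the strand of the gene. A match is a description of the letters, and binding was not measured.
Pifo: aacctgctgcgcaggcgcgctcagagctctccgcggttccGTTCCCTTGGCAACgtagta
Kif9: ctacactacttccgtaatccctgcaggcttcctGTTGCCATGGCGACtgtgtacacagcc
Ttc26: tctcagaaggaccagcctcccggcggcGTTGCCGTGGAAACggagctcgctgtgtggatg
Bbs7: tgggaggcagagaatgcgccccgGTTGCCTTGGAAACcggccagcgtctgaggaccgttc
Ift57: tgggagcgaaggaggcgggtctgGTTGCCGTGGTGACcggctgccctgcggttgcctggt
Intu: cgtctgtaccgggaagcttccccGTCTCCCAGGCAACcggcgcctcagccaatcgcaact

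These windows lie upstream of the start site, at chr3:106001498-106001557 on the minus strand for Pifo and chr9:110476934-110476993 on the plus strand for Kif9. The window of Ttc26 is chr6:38381464-38381523 (plus), that of Bbs7 chr3:36613474-36613533 (minus), that of Ift57 chr16:49699184-49699243 (plus) and that of Intu chr3:40540694-40540753 (plus). Ttc26, an intraflagellar transport protein, was 6.57-fold higher in OSNs at 3396 against 516.7. Bbs7, a subunit of the BBSome that carries membrane proteins in cilia, was 5.26-fold higher at 4300.4 against 817.0. Ift57 was 2.81-fold higher at 1177 against 418.2, and Intu, which acts in cilium formation, 4.70-fold higher at 1965 against 417.7. The core bound by Ebf factors (TCCC, any 2 bases, GGGA) was found in 1.99% of higher genes, 1.99% of lower genes and 1.28% of all genes with a promoter sequence. It was in 2 of 79 promoters of the 100 highest genes and 0 of 79 of the 100 lowest.

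Genes of protein folding and stress were higher for 11 of 28, lower for 1 and within 2-fold for 16 (median 0.83, and 0.81 over the 27 measured in both). Trib3, a stress-induced pseudokinase, had 1601 in OSNs and 92.3 in brain (17.3-fold higher). Ppp1r15a, which restarts translation after stress, had 2338 in OSNs and 295.3 in brain (7.92-fold higher), and Herpud1, a degradation factor, 3968 in OSNs and 520.2 in brain (7.63-fold higher). The chaperone Hspa5 was 2.21-fold higher at 8783 against 3969, while Calr and Xbp1 were within 2-fold (0.21 and 0.07). Clgn, a chaperone of the calnexin family, was higher at 27504 in OSNs and 688.3 in brain, a log2 ratio of 5.32. OSNs were sorted cells and brain was tissue, so preparation and cell type cannot be told apart for these genes.

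Immediate early genes, which respond to activity, numbered 28, with 13 lower and 2 higher (median -1.08), and over the 14 measured in both the median was -0.07. Ier2 was 7.64-fold higher at 2836 against 371.1 and Jun 2.10-fold higher at 1758 against 837.4. Arc and Egr3, which brain neurons induce with activity, were at least 18.4-fold lower at 25.8 against 1296 and at least 36.3-fold lower at 38.6 against 2892. Fos was within 2-fold (-0.12). Sorting of the OSNs and cell type cannot be told apart for these genes either.

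In glycolysis and glucose uptake 12 of 24 genes were lower and 1 was higher (median -1.12, and -1.34 over the 17 measured in both). Slc2a3, the neuronal glucose transporter, had 129.9 in OSNs and 3294 in brain (25.4-fold lower), and the neuronal enolase Eno2 had 304.2 in OSNs and 5819.8 in brain (19.1-fold lower). Ldha, which makes lactate, was 4.14-fold lower at 543.9 against 2252, whereas Ldhb was within 2-fold (0.28). Ckmt1, a mitochondrial creatine kinase, was 2.63-fold higher at 2923 against 1113. Oxidative phosphorylation subunits lay within 2-fold for 68 of 73 (median 0.19), cytosolic ribosomal proteins for 40 of 48 (median 0.00) and proteasome subunits for 31 of 39 (median 0.42). The shared probe sets had medians of 0.14 on chip A and 0.37 on chip B, so signs of medians this small depend on the scaling.

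**Figure D4:**
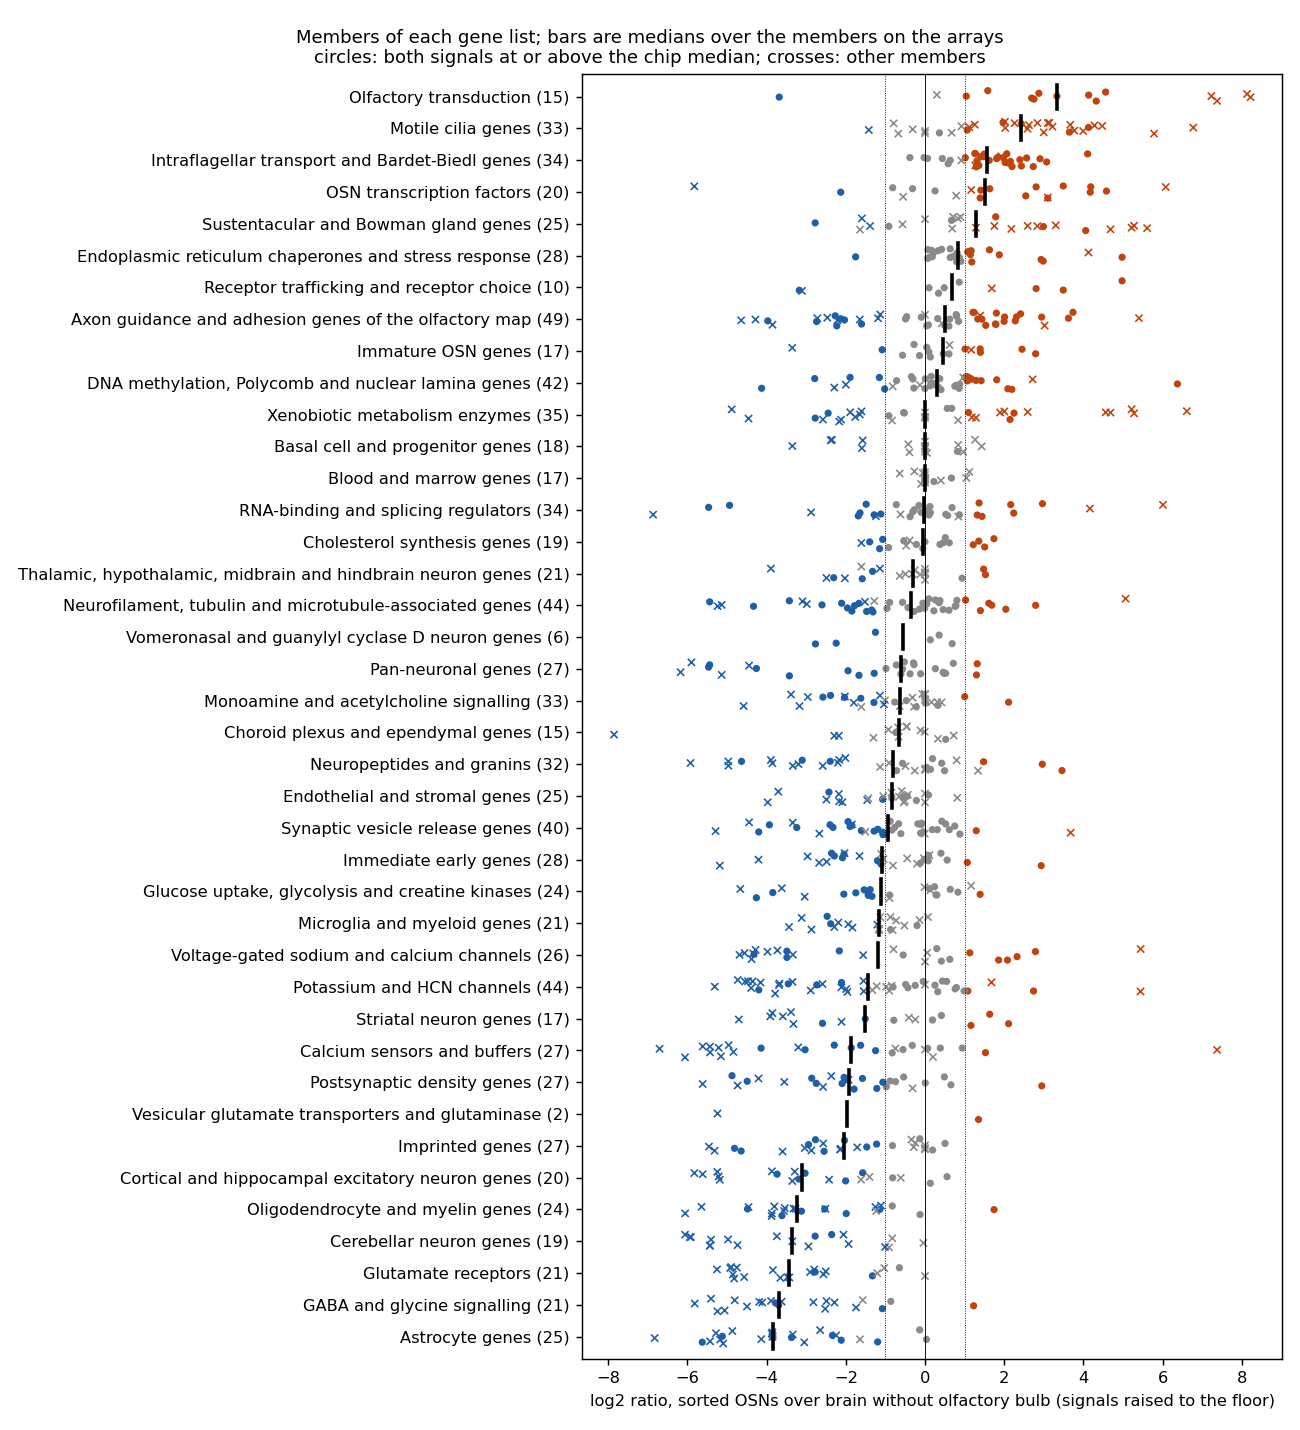
Log2 ratio of OSNs over brain (horizontal) for the members of 40 gene lists on the arrays, 1 symbol per gene with the number of genes in brackets; orange is at least 2-fold higher, blue at least 2-fold lower, grey within 2-fold or below the filter, circles are measured in both, and black bars are list medians. The medians run from -3.84 for astrocyte genes to 3.33 for olfactory transduction, and crosses are the other members.

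Glial genes marked the brain side. Of 25 astrocyte genes 22 were lower and none higher (median -3.84, and -2.85 over the 10 measured in both). Slc1a3, a glutamate transporter of astrocytes, had 248.6 in OSNs and 12269.5 in brain (49.4-fold lower), and Apoe, a lipid carrier, 309.5 in OSNs and 10744 in brain (34.7-fold lower). Bcan, a matrix proteoglycan, had 329.8 in OSNs and 8092 in brain (24.5-fold lower). Of 24 oligodendrocyte genes 20 were lower (median -3.24), with the myelin enzyme Cnp lower at 181.3 in OSNs and 9062 in brain, a log2 ratio of -5.64. The exception was Olig2, a factor of the oligodendrocyte lineage, at 941.8 against 281.1 (3.35-fold higher).

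Lists of regional neurons differed among themselves. Of 19 cerebellar genes 16 were lower and 3 below the filter (median -3.35), 14 of the 16 above the filter in brain only. Pvalb, parvalbumin, had 122.6 in OSNs and 5289 in brain (43.1-fold lower), and Cbln3, a granule cell gene, 114.1 in OSNs and 6989 in brain (61.3-fold lower). Cortical and hippocampal genes were lower for 14 of 20 (median -3.11, and -1.79 over the 8 measured in both). Of 21 thalamic, hypothalamic, midbrain and hindbrain genes 7 were lower, 2 higher, 2 within 2-fold and 10 below the filter (median -0.32, and 0.00 with the floor at percentile 40). Striatal genes had 9 lower and 3 higher of 17, and their median turned from -1.51 to 0.30 over the 8 measured in both. The higher ones were Drd2, described above, Bcl11b (7352 against 2368, 3.11-fold) and Foxp1 (2333 against 1043, 2.24-fold).

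Ttr, made by the choroid plexus, had 149.3 in OSNs and 34516 in brain (231-fold lower), yet other genes of that list, such as Folr1 (-0.67) and Clic6 (0.52), were within 2-fold. In the microglia and myeloid list 10 of 21 genes lay 2-fold or more below brain and none above (median -1.17). P2ry12 had 51.2 in OSNs and 760.4 in brain (at least 10.8-fold lower). Of 25 genes from endothelium and stroma 9 were lower (median -0.84, and -0.55 over the 7 measured in both), among them the barrier transporter Slco1c1 with 43.5 in OSNs and 1103 in brain (at least 15.7-fold). None of 17 blood and marrow genes differed by 2-fold above the filter, and 12 were below it.

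Genes known from other cells of the olfactory epithelium gave signal in the sorted sample, and the source of that signal was not tested. Of 25 supporting-cell and gland genes 13 were higher than in brain, 3 lower, 4 within 2-fold and 5 below the filter (median 1.29). Of the 13, 10 were above the filter in OSNs only, which sets their sign, and 3 of the 6 genes measured in both were higher. Summed signals of the 25 genes were 19525 against 9312 on chip A and 13443 against 1309 on chip B. Cyp2g1, a nasal cytochrome, had 3822 in OSNs and 102.7 in brain (37.2-fold), Sec14l3 8815 in OSNs and 529.5 in brain (16.6-fold) and the secreted protein Bpifa1 3432 in OSNs and 34.6 in brain (at least 48.8-fold). Obp1a, an odorant-binding protein of glands, had 693.9 in OSNs, with brain at the floor (at least 9.87-fold). Of 18 basal cell and progenitor genes none was higher, 5 were lower and 10 below the filter, with OSNs at the floor for 7.

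Xenobiotic enzymes and claudins, known in part from supporting cells, had members on both sides. Of 35 xenobiotic enzymes 13 were higher, 10 of them above the filter in OSNs only, and 11 lower, 9 of them above it in brain only (median 0.00). Sult1d1 had 6878 in OSNs and 47.3 in brain (at least 97.8-fold higher) and Nqo1 3560.1 in OSNs and 150.6 in brain (23.6-fold higher), while Aldh1a1 had 28.8 in OSNs and 2072 in brain (at least 29.5-fold lower). Of 20 claudins 5 were higher, 3 lower and 11 below the filter (median 0.00). The tight junction genes Cldn9, with 13217 in OSNs and 13.7 in brain (at least 166-fold higher), and Cldn3, with 3474 in OSNs and 66.3 in brain (at least 49.4-fold higher), stood against the endothelial Cldn5, with 60.7 in OSNs and 917.1 in brain (at least 13-fold lower). What part supporting-cell RNA had in these values was not tested.

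Several of the genes furthest above brain stood outside the lists. Umodl1, an olfactorin-like membrane protein, had 34971 in OSNs and 436.7 in brain (80.1-fold). Ctxn3, a cortexin, had 27367 in OSNs and 532.9 in brain (51.4-fold), and the lipid flippase Atp10d 22106 in OSNs and 419.8 in brain (52.7-fold). Glb1l2 had 19326 in OSNs and 330.1 in brain (58.5-fold), with a second probe set at 7.38 log2 units, and the follistatin-like gene Fstl5 had 33126 in OSNs and 1101 in brain (30.1-fold). All 5 were measured in both arrays, so the filter did not set their direction.

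Others were at the floor in brain. Acbd7, an acyl-CoA-binding protein, had 9206 in OSNs and 52.5 in brain (at least 116-fold), Fetub, a fetuin, 6362 in OSNs and 50.3 in brain (at least 90.5-fold) and the glycerol kinase Gk5 6806 in OSNs and 33.5 in brain (at least 85.4-fold). On the brain side, the phospholipase Plcb1 had 284.7 in OSNs and 6955 in brain (24.4-fold lower), the adhesion receptor Adgrb2 316.4 in OSNs and 7689 in brain (24.3-fold lower) and Unc80, a subunit of the sodium leak channel, 404.6 in OSNs and 9673 in brain (23.9-fold lower). Stum (55.9 against 4886, at least 61.3-fold), Sez6l2 (39.2 against 4062, at least 57.8-fold) and Bend6 (47.0 against 4550.4, at least 57.1-fold) were at the floor in OSNs.

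Of 10096 probe sets without a single gene symbol, 671 (6.65%) were 2-fold or more above brain in OSNs and 919 (9.1%) were below it, smaller shares than over all probe sets of either chip. Their ratios are described no further because no gene can be named.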

How the data were processed

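Per the labels, total RNA was extracted with TRI reagent, labelled by a one-cycle protocol and hybridised to Affymetrix mouse arrays. The deposited intensity values are probe set signals on a linear scale, computed with MAS5 per the submitters' processing notes, which name it for 5 of 6 arrays (the brain array of chip A is the exception). The sources used here give no version, no detection calls, and no word on whether both chips received the same RNA extract. Scaling to a common level fixes each array's mean, so amounts per cell cannot be compared. Median signals were 194.9 in OSNs and 239.65 in brain on chip A, and 224.5 and 257.5 on chip B. For arrays, their number (1 per population and chip) limits the precision.

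The 64 control probe sets of each chip entered only the floor and the filter. Of the others, 35041 had a single symbol, 936 several and 9160 none. For 34837 the Entrez identifier was found among GRCm38.p6 RefSeq genes, whose symbol was then used, changed or not. Each gene took its brightest probe set, ranked within a chip by mean log2 signal after flooring. The array of residual epithelium of each chip entered only the floor, the filter and that choice. The steps that call genes were run on simulated arrays with planted shifts, which checks the computation and not the precision of the ratios. The members, gene lists and families were chosen with earlier results of these data known. Named genes were drawn from the 15 highest and 15 lowest ratios measured in both and the 15 on each side with the other array at the floor. In these rankings the counted probe sets of a gene had to agree in sign. Others came from the 3 highest and 3 lowest of each list and from families in opposite directions, and not every ranked gene is named. Further genes were chosen after their values were seen. Computation ran in Python 3.11.15 with pandas 2.3.3 and numpy 2.4.6, and plots were drawn with matplotlib 3.10.9.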

Additional observations from a re-analysis of the deposited data

How the results depend on the processing

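The counts of genes at least 2-fold apart (2287 higher, 2606 lower) stayed within 1.5 times under several other settings. These were a floor at percentile 40, a pseudocount of 32, no signal filter, a filter at percentile 75 and quantile normalization. Centring on shared probe sets (1778 and 3127) and both other ways of choosing a probe set stayed within it too. A floor at percentile 10 and median centring gave the same 2287 and 2606, and neither could change them. The median log2 ratio of each chip was already 0, and a counted signal over the main floor is already more than 2-fold. Requiring both signals to reach the chip median left 1530 higher and 1111 lower genes, since it leaves out genes bright in 1 population only. Chip A alone gave 1311 higher and 1682 lower genes and chip B alone 1291 and 1410, each over fewer genes. Over 499 list medians recomputed, 378 moved by less than the spread used and 118 by more. Of lists with a median of at least 1 log2 unit in size, 3 reversed, each with both signals at or above the chip median: sodium and calcium channels to 0.41, potassium and HCN channels to 0.10 and striatal genes to 0.30. The median of microglia and myeloid genes went from -1.17 to 0.00 on chip B alone. Among lists with smaller medians the sign also changed for neuropeptides (0.14 with both signals required), for DNA methylation, Polycomb and lamina genes (-0.24 on chip B alone), for vomeronasal genes (0.13 on chip B alone), for cholesterol synthesis (up to 0.42) and RNA-binding genes (up to 0.08), and guidance genes came to 0.00 on chip A alone. No paired analysis was possible because the labels give no replicate numbers and each population has 1 array per chip. Signals near the floor carry no order, so "at least" ratios cannot be ranked by size of change.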

Other observations

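Of 4 markers of the olfactory bulb, which was left out of the brain sample, 2 were higher in OSNs and 2 were below the signal filter. Cdhr1, a protocadherin-related gene also used as a bulb marker, had 3178 in OSNs and 111.6 in brain, 28.5-fold higher. Eomes, a transcription factor of bulb projection neurons, had 1093 in OSNs and 340.6 in brain, 3.21-fold higher, and in brain it was above the chip median.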
